A study of Homo sapiens with 6 samples.

Results

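The genes described here encode the machinery that fuses a secretory vesicle with its target membrane: synaptotagmins, syntaxins, the SNAP25 family, VAMPs and the proteins that prepare them for fusion. They were chosen by symbol, as protein-coding genes named SYT followed by a digit, SYTL, STX or STXBP followed by a digit, VAMP, UNC13 or RIMS, together with SNAP23, SNAP25, SNAP29 and SNAP47. This gave 66 of the 60664 genes of the count table, spread over 20 chromosomes. The RNA was sequenced from U-2 OS, a polyploid human osteosarcoma cell line, after transient lipofection with a control siRNA (siControl) or with siRNA against SFPQ (siSFPQ, 30 nM), in 3 biological replicates each. SFPQ is a nuclear RNA- and DNA-binding protein, and the study used the comparison to learn which transcripts change when it is depleted. All 6 libraries thus come from 1 line, and the comparison is of the same cells with and without the knock-down. The SFPQ gene itself was read 22338, 23139 and 21753 times in siControl, against 3140, 3863 and 3151 in siSFPQ. This left 15.0% of the siControl level (log2 fold change −2.73, standard error (SE) 0.050, adjusted p = 6.34e-30), so the labels of the libraries matched the targeted transcript and the depletion was partial.

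Vesicle fusion is driven by SNARE proteins, which sit on both membranes and zip together into a bundle: a VAMP on the vesicle pairs with a syntaxin and a SNAP25-type protein on the target. Syntaxin-binding (STXBP) proteins clamp or template this assembly, UNC13 and RIMS proteins tether and prime the vesicle, and synaptotagmins couple fusion to calcium. Neurons and endocrine cells use dedicated versions of these proteins for fast release, whereas bone and most other cells use broadly expressed versions for constitutive secretion, lysosome exocytosis and traffic between the Golgi, endosomes and endoplasmic reticulum.

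Of the 66 genes, 65 had at least 10 counts over the libraries and could be tested. SYT6 was not tested, with 1 count in all. Of those tested, 57 had a mean of at least 1 CPM (counts scaled to a common library total) and 8 had less. Library totals lay between 46142855 and 47119203 counts for siControl and between 43469321 and 45543610 for siSFPQ, at which 3 counts correspond to between 0.0637 and 0.069 CPM. The test was the quasi-likelihood F test of edgeR, and all adjusted p-values are Benjamini-Hochberg values over the 29022 genes tested. Genes were called when the adjusted p was under 0.05 and the log2 fold change was beyond 1.5 in either direction. The coefficient of variation between replicates had a median of 5.64% in siControl and 4.58% in siSFPQ for the genes of at least 1 CPM, but 59.6% and 28.3% for those under 1 CPM.

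SFPQ knock-down changed many of these genes, in both directions and mostly by modest amounts. By the adjusted p alone, 23 of 65 rose (35.4%, beside 22.4% of all genes tested) and 28 fell (43.1%, beside 22.1% of all genes tested), while 14 did not pass. Of the 51 that passed, 42 also did so whichever library was left out. The other 9, STX2, STX4, STX5, STX10, STXBP4, SYT5, SYT15B, SYTL4 and VAMP3, lost it without at least 1 library (adjusted p 0.0527 to 0.208). With the fold change requirement, 3 genes were called higher (4.62%, beside 5.54% of all genes) and 6 were called lower (9.23%, beside 4.77% of all genes). The normalized counts of the groups did not overlap for 51 of the 65 genes (78.5%, beside 52.3% of all genes). Only 16477 of the 29022 genes tested were protein-coding, as all vesicle fusion genes are, so these shares are not a matched background. Shares of protein-coding genes are given by length below. The median log2 fold change was −0.07 for the vesicle fusion genes and 0.02 for all genes tested. In the plot of the genes by library, the replicates of a group lay close together except for the sparsely counted genes.

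**Figure D1:**
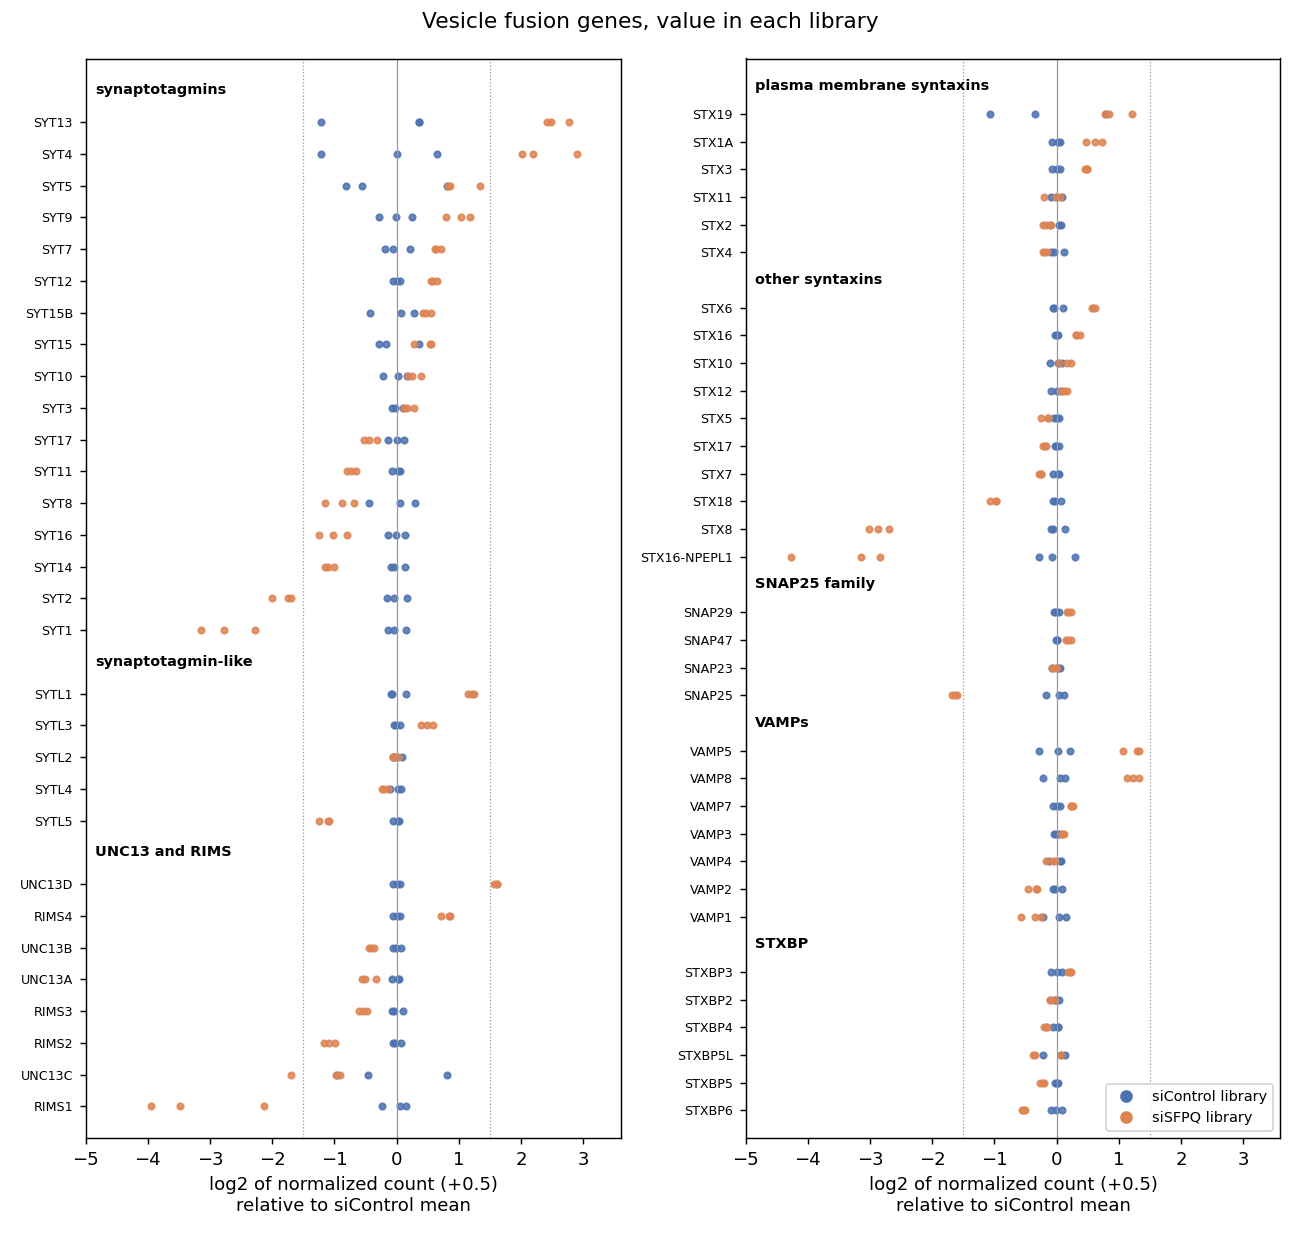
Normalized counts of the tested genes described here in each library, as log2 relative to its siControl mean after adding 0.5, grouped by role; blue points are siControl and orange points siSFPQ libraries, with dotted lines at −1.5 and 1.5. SYT13, SYT4 and UNC13D lie beyond the right line, and RIMS1, STX16-NPEPL1, STX8, SYT1, SYT2 and SNAP25 beyond the left one, in every siSFPQ library.

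Several genes of the neuronal release apparatus fell, but others rose, among them STX1A (log2 fold change 0.61) and, from the lists below, SYN1 (0.87). SYT1 and SYT2, the calcium sensors of fast transmitter release, and SNAP25, their plasma membrane SNARE partner, were counted in siControl U-2 OS cells and fell past both thresholds. SYT1 (ENSG00000067715, chr12:78863993-79452008, + strand) had 136, 146 and 166 counts in siControl and 16, 22 and 31 in siSFPQ. The groups did not overlap, and the siSFPQ level was 15.4% of siControl (log2 fold change −2.70, SE 0.22, adjusted p = 1.4e-12). SYT2 (ENSG00000143858, chr1:202590596-202710454, − strand) had 471, 378 and 408 counts in siControl and 125, 127 and 106 in siSFPQ. Again every siSFPQ library lay below every siControl library, at 28.4% of the siControl level (log2 fold change −1.82, SE 0.12, adjusted p = 1.09e-14). SNAP25 (ENSG00000132639, chr20:10172395-10308258, + strand) had 430, 374 and 456 counts in siControl against 127, 139 and 140 in siSFPQ, without overlap. Its level in siSFPQ was 32.1% of siControl (log2 fold change −1.64, SE 0.11, adjusted p = 3.3e-14).

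SYT13 and SYT4 went the other way from very low levels. SYT13 (ENSG00000019505, chr11:45240302-45286341, − strand), an atypical synaptotagmin without the usual calcium-binding residues, had 10, 10 and 3 counts in siControl and 44, 44 and 56 in siSFPQ. SYT4 (ENSG00000132872, chr18:43267892-43277535, − strand), a synaptotagmin of dense-core vesicles, had 3, 5 and 1 counts in siControl and 15, 14 and 26 in siSFPQ. The groups did not overlap for either gene, and both rose (SYT13 log2 fold change 2.62, SE 0.38, adjusted p = 6.9e-07; SYT4 log2 fold change 2.56, SE 0.62, adjusted p = 9.62e-04). Both nevertheless stayed under 1 CPM on average, so their folds rest on few reads.

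**Figure D2:**
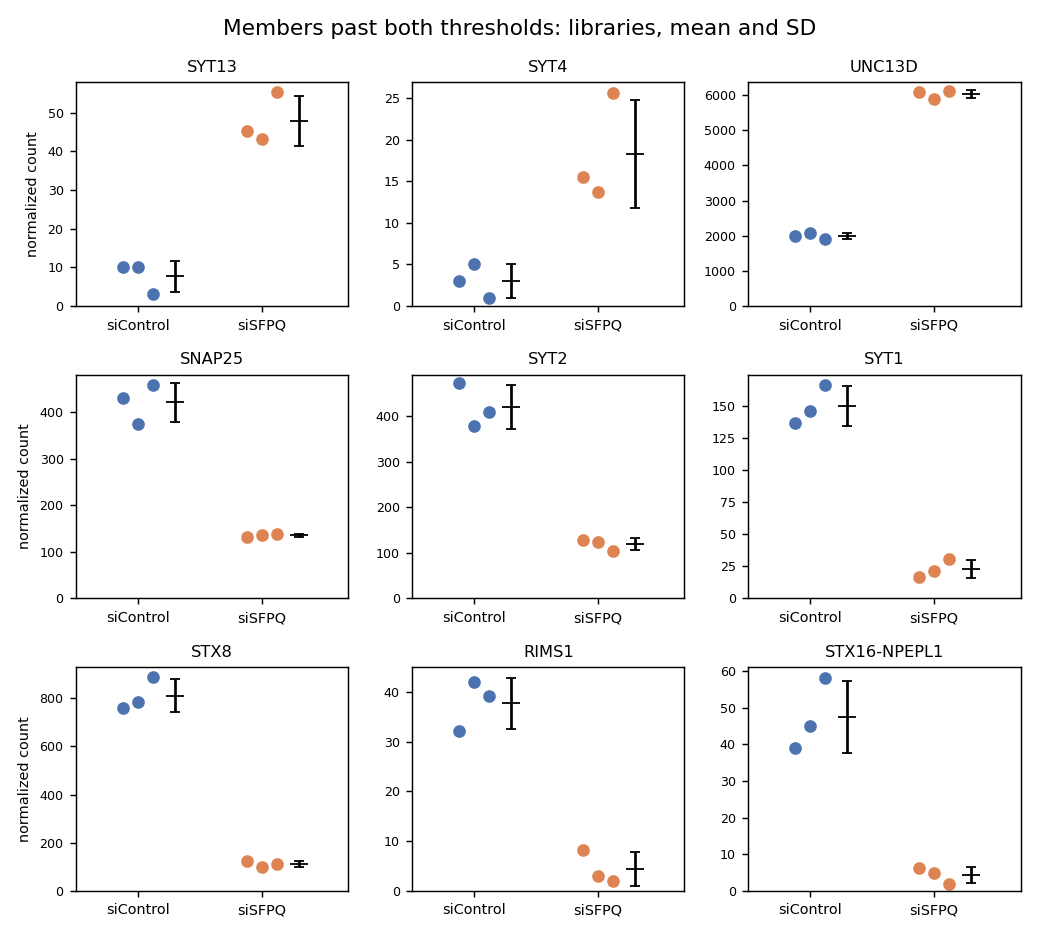
Normalized counts of the 9 genes past both thresholds in each siControl (blue) and siSFPQ (orange) library, each on its own linear axis from 0, with the mean and SD of the 3 libraries beside the points. The 3 genes of the top row were higher and the 6 below lower in siSFPQ, and the groups overlap in none of them.

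Of the 17 synaptotagmins tested, 7 rose, 7 fell and 3 did not pass. SYT11, an atypical synaptotagmin of recycling vesicles and the most abundant member per exon length, had 4636, 5047 and 4946 counts in siControl and 2722, 3168 and 2969 in siSFPQ, and fell by 0.73 on the log2 scale (SE 0.044, adjusted p = 1.22e-15). SYT14 fell from a normalized count of 2166 ± 180.3 to 1022 ± 51.6 (SD, n = 3; log2 fold change −1.08, adjusted p = 7.57e-17), and SYT16 from 647.6 ± 58.0 to 321.3 ± 49.8 (log2 fold change −1.01, adjusted p = 1.29e-10). Both belong to the branch of the family that does not bind calcium. SYT8 (log2 fold change −0.90, SE 0.18, adjusted p = 6.74e-05) and SYT17 (−0.43, SE 0.095, adjusted p = 3.55e-04) also fell.

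Among the synaptotagmins that rose were further calcium sensors of regulated exocytosis. SYT7, which acts in lysosome exocytosis and slow release, had 217, 180 and 165 counts in siControl and 299, 295 and 296 in siSFPQ (log2 fold change 0.66, SE 0.12, adjusted p = 1.46e-05). SYT9, a sensor of secretory granules, had 35, 29 and 42 counts in siControl and 78, 63 and 74 in siSFPQ (1.01, SE 0.23, adjusted p = 5.41e-04). The groups overlapped for neither gene. SYT12 rose by 0.60 (SE 0.048, adjusted p = 1.39e-12). SYT5 passed with an adjusted p of 0.0215 (log2 fold change 1.04, SE 0.37), but its siControl libraries were uneven, at 32, 10 and 12 counts against 32, 33 and 47 in siSFPQ. SYT15B (0.49, adjusted p = 0.00758) is a near-identical paralog of SYT15 (0.47, adjusted p = 0.0808), so the assignment of reads between them is uncertain. SYT3 (0.19) and SYT10 (0.28) did not pass.

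Summed over the family, the level per exon length was 34.8 ± 1.11 RPKM (counts scaled by exon length in kb and by library size) in siControl and 25.6 ± 0.734 in siSFPQ (SD, n = 3; no test was run on sums). SYT11 made up 59.2% of this sum in siControl and 48.5% in siSFPQ, and SYT12 10.3% and 21.1%. SYT1 and SYT2 together were a small part of it, at 0.99% and 3.39% in siControl, and SYT13 and SYT4 remained below 1% of it in both groups.

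The promoter sequences of SYT1 and SYT4 are shown because these genes lie near the opposite ends of the family's range of changes. They come from RefSeq on GRCh38.p14 and run 5′ to 3′ from 250 bases before to 50 bases after the annotated start. For SYT1 this is chr12:78864524-78864823 (+ strand), with matches to the CCAAT box (CCAAT, or ATTGG on the other strand) and the GC box (GGGCGG) in capitals. For SYT4 it is chr18:43277441-43277740 (− strand), with a match to the STAT-type GAS pattern (TTCNNNGAA) in capitals.
SYT1: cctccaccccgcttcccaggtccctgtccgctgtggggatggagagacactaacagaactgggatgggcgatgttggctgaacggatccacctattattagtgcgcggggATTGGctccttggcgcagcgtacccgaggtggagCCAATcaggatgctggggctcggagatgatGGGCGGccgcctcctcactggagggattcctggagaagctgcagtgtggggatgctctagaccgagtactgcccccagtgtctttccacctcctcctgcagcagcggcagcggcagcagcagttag
SYT4: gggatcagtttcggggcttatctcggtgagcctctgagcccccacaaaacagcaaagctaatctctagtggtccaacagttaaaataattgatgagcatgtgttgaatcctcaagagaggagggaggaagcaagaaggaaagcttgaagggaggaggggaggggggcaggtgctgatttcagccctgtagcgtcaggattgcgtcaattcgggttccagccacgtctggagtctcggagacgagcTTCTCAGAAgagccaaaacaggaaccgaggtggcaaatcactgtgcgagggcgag

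Synaptotagmin-like proteins bind the small GTPase Rab27 and tether secretory vesicles to the plasma membrane. SYTL1 had 348, 355 and 412 counts in siControl and 796, 878 and 893 in siSFPQ, and rose by 1.20 on the log2 scale (SE 0.081, adjusted p = 2.29e-14). SYTL5 had 1419, 1501 and 1518 counts in siControl and 604, 716 and 700 in siSFPQ, a log2 fold change of −1.14 (SE 0.064, adjusted p = 1.27e-16). The groups were separate for both genes, in opposite directions. SYTL3 also rose (0.49, adjusted p = 2.21e-06) and SYTL4 fell slightly (−0.19, adjusted p = 0.0165), whereas SYTL2 did not pass (−0.03, 95% confidence interval −0.13 to 0.07). The summed RPKM of these 5 genes was 18.4 ± 0.341 in siControl and 17.8 ± 0.588 in siSFPQ, while its make-up moved: SYTL5 was 36.5% of the sum in siControl and 17.1% in siSFPQ, SYTL1 7.92% and 18.7%, and SYTL3 21.3% and 30.9%.

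Of the 10 genes grouped as syntaxins of internal membranes, 3 rose, 6 fell and 1 did not pass. The 10, and the 6 that fell, include the readthrough STX16-NPEPL1 described below. STX8 changed most among the well-counted ones. STX8 (ENSG00000170310, chr17:9250471-9576591, − strand), an endosomal SNARE of late endosome fusion, had 760, 783 and 887 counts in siControl and 121, 102 and 112 in siSFPQ. The groups were far apart, with 13.8% of the siControl level left (log2 fold change −2.86, SE 0.10, adjusted p = 9.65e-22). This gene spans 326.1 kb, of which a single intron takes 127.9 kb. Its promoter window from RefSeq, chr17:9575771-9576070 (− strand, GRCh38.p14), is shown with its 2 GC box matches in capitals.
STX8: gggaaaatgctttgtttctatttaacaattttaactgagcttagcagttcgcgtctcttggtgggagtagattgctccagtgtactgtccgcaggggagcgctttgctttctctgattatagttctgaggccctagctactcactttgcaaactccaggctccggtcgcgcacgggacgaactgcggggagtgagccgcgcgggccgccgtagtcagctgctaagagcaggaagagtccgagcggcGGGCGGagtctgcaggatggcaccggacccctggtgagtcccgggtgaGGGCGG

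STX18, the endoplasmic reticulum syntaxin that receives vesicles from the Golgi, fell to 49.8% of siControl, from 1044, 1148 and 1075 counts to 501, 567 and 564 (log2 fold change −1.01, SE 0.070, adjusted p = 4.26e-14). STX6, of the trans-Golgi network and endosomes, rose from 1986, 1972 and 2186 counts to 3041, 3156 and 3074 (0.59, SE 0.047, adjusted p = 1.36e-12). Neither pair of groups overlapped. STX16, another trans-Golgi syntaxin, rose by 0.33 (SE 0.040, adjusted p = 1.46e-08). Per exon length it had the highest mean of this group over all libraries (18.7 RPKM, with 17.4 for STX10). In siControl alone the 2 were nearly level (16.55 and 16.49 RPKM). STX7 (−0.26), STX17 (−0.19) and STX5 (−0.17) fell by small amounts and STX10 rose by 0.15 (adjusted p = 0.0405). STX12 did not pass (0.12, adjusted p = 0.0749).

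The annotation also holds STX16-NPEPL1 (ENSG00000254995, chr20:58651434-58715410, + strand), a readthrough transcript that joins STX16 to the next gene, the aminopeptidase gene NPEPL1. It had 39, 45 and 58 counts in siControl and 6, 5 and 2 in siSFPQ, without overlap (log2 fold change −3.42, SE 0.42, adjusted p = 2.91e-08). NPEPL1 itself fell by 0.53 (adjusted p = 0.00254) while STX16 rose. Because the readthrough shares its exons with both genes, how reads were divided among the 3 is uncertain.

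None of the 7 plasma membrane syntaxins was called, 2 rose and 2 fell. STX1A, the neuronal and endocrine release syntaxin, had 431, 465 and 471 counts in siControl and 732, 720 and 643 in siSFPQ and rose by 0.61 (SE 0.082, adjusted p = 1.34e-07). STX3, which serves apical and granule exocytosis, rose by 0.48 (SE 0.041, adjusted p = 8.1e-12). The groups overlapped for neither. STX2 (−0.15) and STX4 (−0.19), of general surface delivery, fell slightly, and STX11 and STX19 did not pass. STX19 was near the floor, at 1, 5 and 2 counts against 5, 7 and 5. Their summed RPKM was 36.5 ± 1.04 in siControl and 40.5 ± 0.448 in siSFPQ. STX2 had the highest level in siControl (13.3 RPKM, with 12.2 for STX3) and STX3 in siSFPQ (17.0 RPKM).

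Among the 4 genes of the SNAP25 family, SNAP25 was the only one called. SNAP29, which works with STX17 in autophagosome fusion, rose by 0.19 (SE 0.041, adjusted p = 2.12e-04), as did SNAP47 (0.19, SE 0.046, adjusted p = 8.63e-04). SNAP23, the general partner of plasma membrane syntaxins, did not pass (−0.03, 95% confidence interval −0.18 to 0.12), with 605, 554 and 591 counts in siControl and 540, 590 and 592 in siSFPQ. Per exon length SNAP25 was 1.91% of the family's summed level in siControl and 0.55% in siSFPQ, so most of that sum was SNAP29, SNAP47 and SNAP23. SNAP25 overlaps the antisense gene SNAP25-AS1, which had 6 to 10 counts in siControl and 10 to 18 in siSFPQ.

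The vesicle SNAREs VAMP5 and VAMP8 rose together. VAMP8, which serves endosome fusion and granule release in many non-neuronal cells, had 130, 102 and 123 counts in siControl and 270, 267 and 302 in siSFPQ (log2 fold change 1.24, SE 0.13, adjusted p = 5.31e-10). VAMP5, first known from muscle, had 169, 119 and 148 counts in siControl and 356, 314 and 364 in siSFPQ (1.24, SE 0.12, adjusted p = 2.79e-10). Neither gene's groups overlapped. They are neighbours on the + strand of chromosome 2, VAMP8 at chr2:85561562-85582031 and VAMP5 at chr2:85584431-85593406, with 2399 bp between them. The genes on either side moved less, as GGCX fell by 0.12 (adjusted p = 0.0155) and RNF181 rose by 0.17 (adjusted p = 0.00682).

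The promoter windows of this pair are shown because the genes are adjacent and rose alike. For VAMP8 the window is chr2:85577336-85577635 and for VAMP5 chr2:85584181-85584480, both + strand on GRCh38.p14 from RefSeq. Capitals mark 1 GAS match (TTCNNNGAA) and 1 GC box in VAMP8 and 4 GC boxes in VAMP5, which are read as CCGCCC on the other strand and of which neighbouring matches share a base. No pattern searched was present in both except the GC box.
VAMP8: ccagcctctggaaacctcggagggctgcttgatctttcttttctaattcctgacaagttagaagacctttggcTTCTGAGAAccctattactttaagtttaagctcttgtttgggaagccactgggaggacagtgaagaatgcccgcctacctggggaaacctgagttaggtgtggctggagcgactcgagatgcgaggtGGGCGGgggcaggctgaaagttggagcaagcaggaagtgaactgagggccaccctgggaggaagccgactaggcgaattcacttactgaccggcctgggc
VAMP5: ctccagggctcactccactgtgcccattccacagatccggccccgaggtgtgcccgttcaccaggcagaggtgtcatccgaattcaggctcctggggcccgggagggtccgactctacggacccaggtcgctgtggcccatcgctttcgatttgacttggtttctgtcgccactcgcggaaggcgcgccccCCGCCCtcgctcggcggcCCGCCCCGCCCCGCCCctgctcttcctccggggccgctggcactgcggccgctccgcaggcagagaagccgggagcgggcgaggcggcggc

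VAMP7, a SNARE of lysosome exocytosis, was the most abundant member of its group, with 37.7 ± 1.47 RPKM in siControl and 44.7 ± 0.615 in siSFPQ (log2 fold change of the counts 0.25, SE 0.040, adjusted p = 4.38e-06). VAMP3, of recycling endosomes, rose by 0.10 (adjusted p = 0.0442). The synaptobrevins VAMP1 (−0.39, SE 0.090, adjusted p = 5.95e-04) and VAMP2 (−0.37, SE 0.072, adjusted p = 7.15e-05), which carry neuronal release, fell. VAMP4 did not pass. As a group, VAMPs summed to 88.1 ± 2.21 RPKM in siControl and 104.3 ± 1.1 in siSFPQ.

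Among the priming factors, UNC13D rose and most of its relatives fell. UNC13D (ENSG00000092929, chr17:75827225-75844785, − strand) primes cytotoxic granules and lysosome-related vesicles for release. It had 1992, 2072 and 1909 counts in siControl and 5908, 6021 and 6197 in siSFPQ, with a wide gap between the groups (log2 fold change 1.60, SE 0.043, adjusted p = 2.06e-25). It belongs to an innate immunity gene signature that the study picked from these same libraries, so its rise here is not independent evidence of that signature. UNC13A (−0.46, SE 0.060, adjusted p = 1.01e-07) and UNC13B (−0.41, SE 0.048, adjusted p = 9.58e-09), which prime synaptic vesicles, fell, and UNC13C, with 8, 2 and 3 counts in siControl and 2, 2 and 1 in siSFPQ, did not pass. UNC13D made up 25.7% of the summed RPKM of the UNC13 and RIMS genes in siControl and 53.0% in siSFPQ.

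RIMS proteins scaffold the release site and bind Rab3 on the vesicle. RIMS1 (ENSG00000079841, chr6:71886550-72403150, + strand) had 32, 42 and 39 counts in siControl and 8, 3 and 2 in siSFPQ. Although no libraries overlapped, the log2 fold change of −3.08 (SE 0.46, adjusted p = 1.13e-06) depended on 1 library in size: without siSFPQ replicate 1 the log2 fold change was −3.86. RIMS2 fell from 479, 488 and 523 counts to 242, 240 and 225 (log2 fold change −1.08, SE 0.096, adjusted p = 1.92e-11). The short forms diverged. RIMS3 fell by 0.54 (SE 0.056, adjusted p = 6.62e-10), and RIMS4 rose by 0.81, from 897, 870 and 827 counts to 1513, 1455 and 1599 (SE 0.061, adjusted p = 2.58e-13).

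None of the 7 syntaxin-binding genes was called, 1 rose and 3 fell. STXBP3, the most abundant of the 7 per exon length, rose by 0.21 (SE 0.046, adjusted p = 2.18e-04). STXBP6 (−0.54, SE 0.096, adjusted p = 1.78e-05), STXBP5 (−0.23, adjusted p = 3.74e-04) and STXBP4 (−0.18, adjusted p = 0.0197) fell. STXBP2 (−0.07, 95% confidence interval −0.22 to 0.07) and STXBP5L did not pass. Their summed RPKM was 18.8 ± 0.556 in siControl and 19.3 ± 0.362 in siSFPQ.

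**Figure D3:**
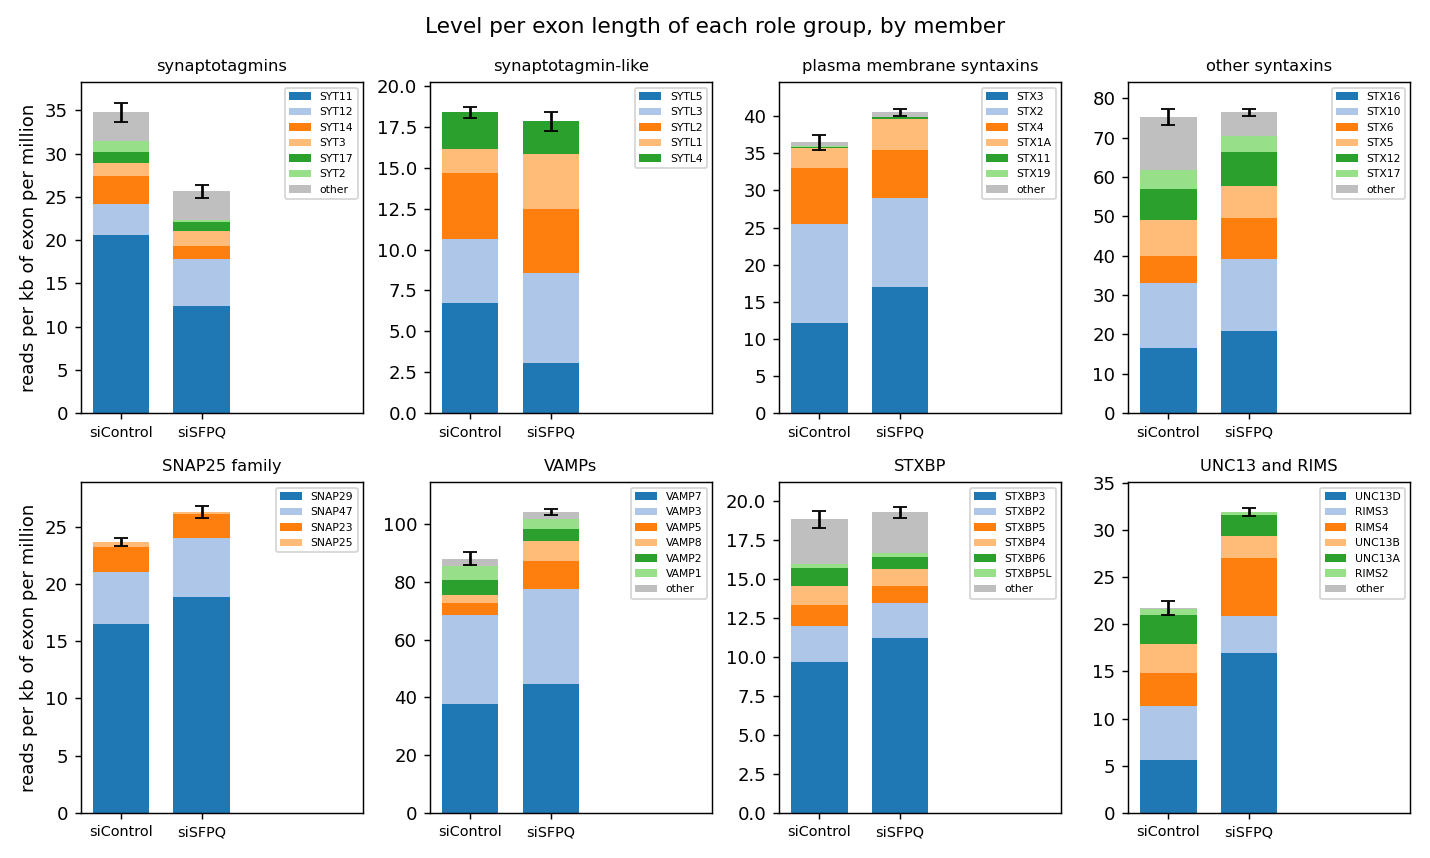
Level per exon length of each role group (bars from 0, stacked by gene, mean of the 3 libraries; error bars, SD of the sum) in siControl and siSFPQ, in RPKM. The synaptotagmin sum is lower in siSFPQ (25.6 against 34.8) with a smaller SYT11 part, the UNC13 and RIMS sum is higher (31.9 against 21.7) with a larger UNC13D part, and the synaptotagmin-like sum is similar with a smaller SYTL5 part and larger SYTL1 and SYTL3 parts.

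The genes that fell were often long. The genomic span of the vesicle fusion genes ranged from 4.40 to 753.8 kb with a median of 54.1 kb, and 21 of the 65 tested spanned over 100 kb. Of these 21, 15 fell (71.4%, beside 56.5% of all protein-coding genes of that length) and 2 rose (9.52%, beside 14.6%), namely SYT9 and SYTL3. Of the 44 of up to 100 kb, 13 fell (29.5%, beside 24.2%) and 21 rose (47.7%, beside 31.6%). The median log2 fold change was −1.01 over 100 kb and 0.19 up to 100 kb, where all protein-coding genes had −0.35 (n = 3424) and 0.05 (n = 13053). Among genes of at least 1 CPM the longer vesicle fusion genes had −0.54 and the longer protein-coding genes −0.35, a smaller gap. With the limit at 50 kb the values were −0.21 and −0.16. The class over 100 kb is not matched in length, as 12 of the 21 and 1417 of the 3424 spanned over 200 kb. Over 200 kb the medians were −1.045 and −0.79. With at least 1 CPM as well they were −0.77 (n = 10) and −0.82 (n = 1115), so the vesicle fusion genes were not lower there.

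Each siSFPQ library showed the difference between longer and shorter vesicle fusion genes. The median log2 ratio to the siControl mean was −0.92, −0.80 and −0.97 in the 3 siSFPQ libraries for the longer genes and 0.20, 0.16 and 0.21 for the shorter ones. In the siControl libraries it lay between −0.029 and 0.027 in both classes. Across the 65 genes, the Spearman correlation between span and log2 fold change was −0.54, and across the 16477 protein-coding genes tested it was −0.28. These are correlations across genes measured in the same 6 libraries, and genes are not independent replicates. The coefficient was −0.52 with the length of the longest intron and −0.36 with exon length, against −0.04 between span and expression level (CPM).

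Length did not order the genes fully. Of the 6 genes called lower, 5 spanned over 100 kb (RIMS1 516.6, SYT1 588.0, STX8 326.1, SNAP25 135.9 and SYT2 119.9 kb), and the exception was the readthrough STX16-NPEPL1 at 64.0 kb. None of the 3 called higher was as long. Among all protein-coding genes tested, 576 over 100 kb and 243 of up to 100 kb were called lower. Called higher were 45 and 495, so the same pattern by length was seen there. On the other hand, STXBP5L, at 516.7 kb nearly as long as SYT1, did not pass (log2 fold change −0.20, 95% confidence interval −0.50 to 0.10), and SYT9, at 230.3 kb, rose. SYT8 fell although it spans only 9.21 kb and SYT11 although it spans 25.6 kb.

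Other components of the same pathway were examined as lists of 75 genes, 74 of which could be tested. By adjusted p, 10 rose (13.5%, beside 22.4% of all genes tested), 33 fell (44.6%, beside 22.1%) and 31 did not pass, and the median of their log2 fold changes was −0.22. With the fold change requirement 1 was called higher (1.35%, beside 5.54%) and 10 lower (13.5%, beside 4.77%). All list genes are protein-coding, whereas the genes tested include non-coding ones. Of the 31 list genes over 100 kb, 19 fell (61.3%, beside 56.5% of protein-coding genes of that length), and of the 43 shorter ones 14 fell (32.6%, beside 24.2%). The exocyst, which tethers vesicles to the plasma membrane, had 6 of 9 genes lower (66.7%, beside 22.1% of all genes tested) and 1 higher (11.1%, beside 22.4%). The 4 of its genes over 100 kb were among the lower ones. EXOC6B fell from 3334, 3570 and 3260 counts to 803, 971 and 881 (log2 fold change −1.94, SE 0.054, adjusted p = 6.79e-25), and EXOC4 fell by 1.89 (SE 0.057, adjusted p = 6.81e-24). Their genes span 650.1 and 813.5 kb.

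Vesicle and active zone proteins had 8 of 19 genes lower (42.1%, beside 22.1% of all genes tested) and 1 higher (5.26%, beside 22.4%). Of the 13 over 100 kb, 53.8% fell, beside 56.5% of protein-coding genes of that length. Of the 6 shorter ones 16.7% fell, beside 24.2%, so by length this list did not fall more often than protein-coding genes. ERC1, a scaffold of secretion sites in non-neuronal cells too, was the most heavily counted of the genes called and went from 8909, 9442 and 8561 counts to 2187, 2646 and 2351 (log2 fold change −1.91, SE 0.047, adjusted p = 2.11e-26). CADPS2, a priming factor of dense-core vesicles, fell from 602, 542 and 523 counts to 57, 69 and 53 (−3.22, SE 0.12, adjusted p = 5.55e-21). No library overlapped between groups for either. Of 14 secretory Rabs and effectors, 5 rose (35.7%, beside 22.4% of all genes tested) and 4 fell (28.6%, beside 22.1%). RPH3AL fell by 1.66 (adjusted p = 7.64e-13), and DOC2B, a calcium-binding effector, by 3.03 (SE 0.53, adjusted p = 1.4e-05) from 22, 50 and 20 counts to 2, 6 and 3. RAB3C, with 16, 9 and 5 counts in siControl and 1, 0 and 1 in siSFPQ, also fell (adjusted p = 3.01e-03). Its siControl mean was 3.34-fold above a floor of 3 counts per library. Because the siControl counts were few and uneven, the size of its fall is uncertain.

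Further SNAREs of the Golgi, endoplasmic reticulum and endosomes fell in 6 of 12 cases and rose in none. VTI1A, which forms a SNARE bundle with STX16 and STX6, fell from 1541, 1614 and 1628 counts to 461, 449 and 485 (log2 fold change −1.78, SE 0.065, adjusted p = 1.22e-21), whereas those partners rose. Other Sec1/Munc18-type proteins fell in 4 of 5 cases (80.0%, beside 22.1% of all genes tested). They were led by SCFD2 (−2.10, SE 0.087, adjusted p = 4.49e-20) and VPS45, the partner of STX16 (−1.58, SE 0.060, adjusted p = 3.17e-21). The disassembly factors had 3 of 4 genes lower (75.0%), with none called, and 1 of 3 complexins tested was lower (33.3%). Ferlins and extended synaptotagmins had 3 of 8 higher (37.5%, beside 22.4% of all genes tested) and 1 lower (12.5%, beside 22.1%). FER1L5 was the only list gene called higher, from 14, 29 and 29 counts to 104, 103 and 100 (2.08, SE 0.24, adjusted p = 7.69e-09).

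The 79 RefSeq promoter windows of 51 of the vesicle fusion genes were searched on both strands for 7 sequence patterns. The GC box (GGGCGG) was in 65.8% of them and in 45.0% of all 35116 windows, the CCAAT box (CCAAT) in 26.6% and 34.6%, and the TATA box (TATAAA) in 2.53% and 11.5%. GAS patterns (TTCNNNGAA) were in 8.86% and 7.66%, AP-1 patterns (TGANTCA) in 7.59% and 7.71%, and CRE patterns (TGACGTCA) in 2.53% and 1.85%. The interferon-stimulated response element, searched as 2 copies of GAAA with NN between them, was in 0 of the 79 windows and in 3.57% of all windows. Median GC content was 66.3% against 58.7%, ranging from 31.0% to 81.7% among the vesicle fusion genes. Among the genes called, UNC13D, SYT13 and SNAP25 had no window among those searched.

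Cell type markers were read beside these results. Of 9 osteoblast markers, RUNX2 (2541 to 2872 counts in any library), COL1A1 and SPARC were well counted, while SP7 and IBSP had at most 5 counts in any library and BGLAP at most 6. COL1A1 (log2 fold change −0.35), SPARC (−0.17) and SPP1 (−1.33) fell, BGLAP was called higher from 0, 0 and 1 counts to 5, 6 and 6, and the summed level was 5007 to 5234 CPM in siControl and 4402 to 4465 CPM in siSFPQ. Of 8 neuron markers 3 rose and 2 fell (log2 fold change −2.84 for RBFOX3 and −3.22 for MAP2), and their summed level was 140.0 to 143.4 CPM in siControl and 159.4 to 165.7 CPM in siSFPQ. Most of that sum was NEFL (mean 128.3 CPM over all libraries), which rose by 0.36 on the log2 scale. The sum therefore follows NEFL and does not describe the neuron markers as a group. Of 4 neuroendocrine markers 2 fell and INSM1 had 0 counts in all libraries, with a sum of 5.89 to 6.83 CPM in siControl and 3.82 to 4.02 CPM in siSFPQ. Of 4 epithelial markers KRT8, KRT18 and CDH1 rose, with a sum of 319.5 to 333.7 CPM and 747.0 to 810.8 CPM. Leukocyte markers summed to at most 1.17 CPM in any library, with CD3E at 0 to 1 counts, PTPRC called lower and ITGAM called higher, and of 3 endothelial markers 2 rose. What part these markers have in the changes above was not tested. All libraries come from 1 line, and in its bulk RNA fewer cells expressing a gene and less RNA per cell cannot be told apart.

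In the annotation, 48 of the 66 genes overlap another gene and 38 overlap one on the opposite strand. The libraries were stranded, but the strand option of the counting is not given in the sources used here, so reads of such pairs may not be told apart. For the 9 genes called, each overlapping long non-coding gene had a normalized count of at most 39.5 in any library. SYT2 overlaps PPP1R12B on the opposite strand, which had normalized counts of 747.4, 810.0 and 694.9 in siControl and 476.5, 509.8 and 460.6 in siSFPQ, also without overlap between the groups. At STX18, the antisense gene STX18-AS1 had 118 to 149 counts in siControl and 127 to 143 in siSFPQ.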

How the data were processed

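RNA-seq of U-2 OS cells was analysed in 6 libraries, 3 siControl and 3 siSFPQ, grouped by their titles. The submitters' processing notes name FastQC for read quality, STAR 2.7.9a for alignment and the GRCh38 build, and the authors deposited raw counts per Ensembl gene for 60664 genes. According to the study's methods the libraries were stranded mRNA libraries and STAR also did the gene quantification, with the Ensembl annotation. The strand option of the counting is not given in the sources used here. No column of per-sample values was left unused (0 columns). The study describes the libraries as biological triplicates of each condition and does not state whether same-numbered libraries of the 2 groups were paired. Within each group, every pair of replicates differed by more than sampling noise (ratio of chi-square to degrees of freedom 3.77 to 5.49).

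From the deposited counts, genes with at least 10 counts in total (29022) were fitted in edgeR 4.0.16 (R 4.3.3) with TMM scaling and tested by its quasi-likelihood method without covariates and Benjamini-Hochberg adjustment. The thresholds are those of the study's methods, which used DESeq2. The procedure was run on simulated data in which few genes changed, by large amounts and only at 1 CPM or more. That run therefore says little about small changes or sparsely counted genes. Normalized counts are counts divided by effective library size and rescaled. Standard errors were derived from the log2 fold change and the F statistic of the same fit. The 95% intervals use a normal approximation and can be narrower than the F test implies. RPKM used the union of annotated exons and effective library size. Gene names, spans and overlaps come from GENCODE 44 on GRCh38, which matched 60463 of the 60664 IDs (99.67%). Promoters come from RefSeq. The genes described and the lists beside them were chosen with earlier results of these data known. Genes named are those past both thresholds, those of at least 1 CPM that changed at least 1.5-fold with an adjusted p under 0.05, the most abundant gene per length in each role group, list genes past both thresholds, and SFPQ. Remaining members were named with their values by role, and neighbouring, overlapping and marker genes were named after their values were seen. Alternatives were DESeq2 1.42.0, other scalings, filters, thresholds and lengths, protein-coding genes only, a replicate block and leaving out each library. Values of some genes are not reported here. Intervals from counts cover the spread between these libraries only.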

Additional observations from a re-analysis of the deposited data

How the results depend on the processing

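The 30 named vesicle fusion genes and 11 named list genes kept their direction in each of the 13 alternative fits that tested them (532 values). Genes called stayed past both thresholds, and the others stayed past the adjusted p. With the filterByExpr filter of edgeR, 67 instead of 74 list genes were tested and 9 instead of 10 were called lower. With a log2 fold change threshold of 1, 8 vesicle fusion genes were called higher and 11 lower, instead of 3 and 6. Leaving out 1 library at a time gave 3 to 4 called higher (SYT5 was added without siControl replicate 1) and 6 lower, 20 to 23 higher and 24 to 29 lower by adjusted p, 1 list gene higher and 11 to 14 lower (10 with all libraries), and −2.84 to −2.67 for SFPQ. RIMS1 ranged from −3.86 to −2.73. Without at least 1 library the adjusted p was lost by VAMP3 (siControl replicate 1 or 3 or siSFPQ replicate 2), SYT15B (siControl 1), SYT5 (siControl 2 or 3, siSFPQ 3), STX10 (siControl 1 or 3, siSFPQ 2 or 3), STX2 (siControl 3, siSFPQ 1), STX4 (siControl 1, siSFPQ 3), STX5 (siControl 2, siSFPQ 1), STXBP4 (siControl 2 or 3, siSFPQ 1 or 3) and SYTL4 (siControl 1, siSFPQ 1 or 3), at adjusted p 0.0527 to 0.208. DESeq2 lost the adjusted p calls of STX10 and SYT5, and testing without a filter that of VAMP3. Scaling by library size alone, which shifted the median of all genes by 0.063 on the log2 scale, lost SYTL4, STX4, STX2, STX5 and STXBP4 and gained STX12, SYT15 and SYT3.

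The median log2 fold change of longer genes was −0.21 with a limit of 50 kb (n = 36, all protein-coding genes −0.16). It was −1.045 with a limit of 200 kb (n = 12, all protein-coding genes −0.79). Among genes of at least 1 CPM it was −0.54 over 100 kb (all protein-coding genes −0.35) and −0.77 over 200 kb (all protein-coding genes −0.82). That of shorter genes was 0.10 with a limit of 200 kb and 0.14 at 1 CPM. The cause of the difference by gene span was not tested. With the longest transcript as length, 5 of 8 role groups kept their most abundant gene. In the others STX10 then led instead of STX16, STX4 instead of STX3 and SYTL2 instead of SYTL5. With the replicate number as a block, 3 genes were called higher and 6 lower, and no vesicle fusion gene gained or lost its call. The deviations of same-numbered libraries from their group means had correlations of 0.0019, 0.012 and 0.015. Those of differently numbered libraries lay between −0.013 and 4.4e-04. All were near 0 and run over all genes tested, sparsely counted ones included, so this cannot decide whether the numbers pair the samples. Depth limits SYT13, SYT4, SYT5, SYT10, RIMS1, UNC13C, STX19 and STX16-NPEPL1, all under 1 CPM.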
